A study of Homo sapiens with 15 samples.

Results

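The spliceosome and hnRNP genes were taken as every protein-coding gene in the deposited tables whose symbol began with HNRNP, SNRP, SNRNP, SF3A, SF3B, PRPF, U2AF or LSM followed by a digit. This gave 55 members among 14432 genes; RefSeq lists 82 such genes, and the other 27 were not analysed here. They fell into 15 hnRNP genes, 10 LSM genes, 7 genes of the U4/U6.U5 tri-snRNP, 5 SF3A and SF3B genes, 5 genes of the Sm core, 4 other PRPF genes, 3 U1 snRNP genes, 2 U2 snRNP genes, 2 U2AF genes and 2 genes of the U11/U12 minor snRNP. Another 2 rows with a matching symbol were not annotated as protein coding and were left out. Every library came from HEK293T T-Rex cells, an established human line. PHC1 PAR-CLIP (2 libraries, transgene PHC1, pulled down with streptavidin beads, cells grown with hygromycin and 4-SU) was set against total nuclear RNA-seq (2 libraries, no transgene) and against RNAPII PAR-CLIP with an antibody to the C-terminal domain (1 library with 4-SU and 1 with 6-SG, no transgene). PAR-CLIP cells took up 100 uM of either nucleoside overnight. ChIP-seq at start sites covered PHC1-dFCS and PHC1 (transgene lines, streptavidin beads, 2 libraries each, joined by the authors), H3K4me3, RNAPII, H3K27me3 and EZH2 (1 library each, no transgene) and 1 input library. The cells with the PHC1 transgene also differed from the others in the pull-down reagent and in hygromycin, so protein, line and reagent cannot be told apart in the comparisons of PHC1 with RNA or RNAPII.

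PHC1 is a polyhomeotic subunit of Polycomb repressive complex 1, which holds genes silent. EZH2 is the enzyme of Polycomb repressive complex 2 that deposits H3K27me3, whereas H3K4me3 marks active promoters. The spliceosome removes introns with small nuclear RNAs that are wrapped by a ring of Sm or LSM proteins and carry particle-specific subunits. The hnRNP proteins coat nascent transcripts and steer splicing, stability and export. Dividing cells express nearly all of these genes. PAR-CLIP crosslinks a protein to thionucleoside-labelled RNA and reports clusters of reads where it was bound.

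The PHC1 libraries held 696186 and 698056 clusters, the RNAPII 4-SU library 667937 and the RNAPII 6-SG library 45259. Of these, 3053 and 3360 (PHC1), 3250 (RNAPII 4-SU) and 280 (RNAPII 6-SG) lay in members. The 10 deepest clusters took 22.6% of the coverage of PHC1 replicate 1 and 3.72% of that of replicate 2. The nuclear RNA libraries held 47187882 and 49626658 reads. Among 7 of 10 HEK293 markers in the tables the nuclear RNA summed to 1552 and 1531 CPM (per 1000000 reads), with VIM highest at 756 and NEFM lowest at 0.209. Summed levels of 5 blood, 4 fibroblast and 5 hepatocyte markers were 0.739 to 1.8 CPM in each RNA library, with HBB and SERPINA1 at 0.

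Promoters of the members carried H3K4me3 and RNAPII at a larger share than genes at large, while their counts with Polycomb marks were near the share of all genes. H3K4me3 ChIP was at 2 times the input or more at 53 of 55 members, against 62.2% of all genes, and RNAPII ChIP at 47 of 55, against 45.5% of all genes. H3K27me3 reached that level at 1 member (1.39% of all genes) and EZH2 at 0 members (1.34% of all genes). The median ChIP over input of the members was 9.03 for H3K4me3, 3.41 for RNAPII, 0.59 for H3K27me3 and 0.80 for EZH2. Over all genes these medians were 5.61, 1.80, 0.77 and 1.00 for the same 4 targets. H3K4me3 was above the median of all genes at 52 members and H3K27me3 at 11 members. With 1 library per target these are descriptions without a test.

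**Figure D1:**
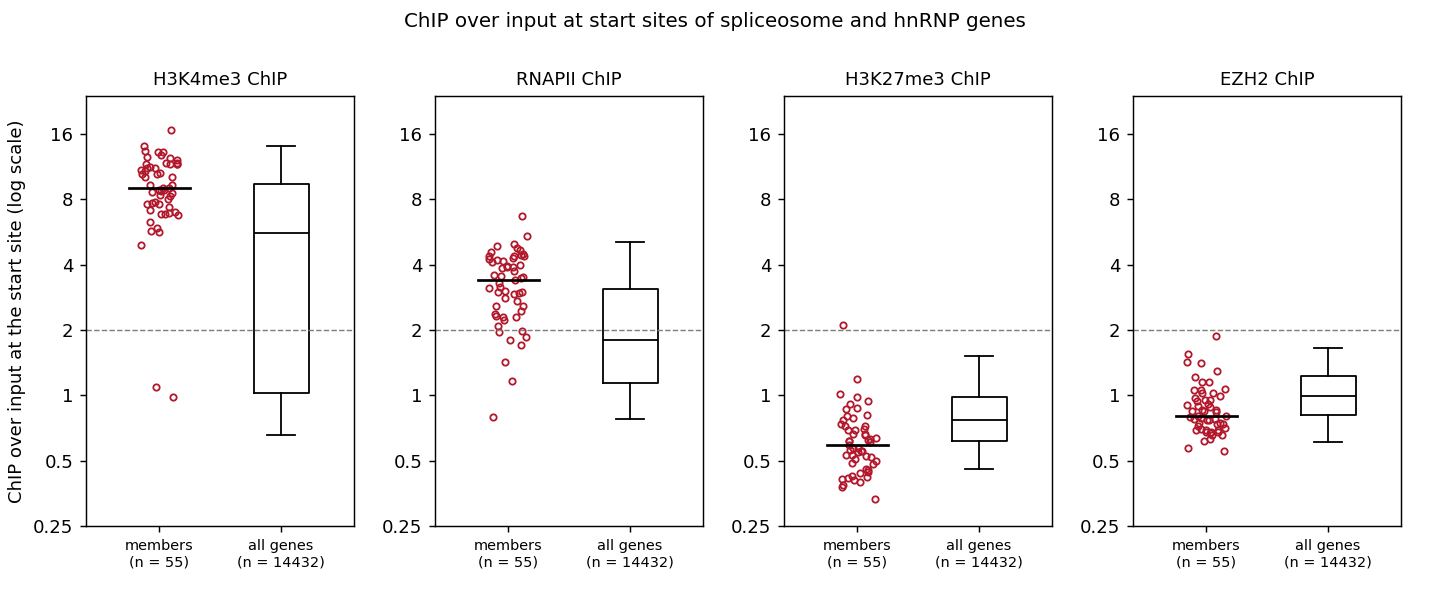
ChIP over input at start sites, in each panel for the 55 members (circles; bar, median) and for all 14432 genes (box, quartiles and median; whiskers, 5th to 95th percentile), on a log axis. The dashed line marks 2 times the input; 53 members lie on or above it for H3K4me3, 47 for RNAPII, 1 for H3K27me3 and 0 for EZH2.

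PRPF38B, a homologue of the spliceosome protein PRPF38A, had the highest H3K4me3, with 443 ChIP reads against 22 input reads at its start site, or 16.7 times the input after scaling. SNRNP200, the helicase that unwinds U4 from U6, followed at 14.1 times and LSM8, a subunit of the ring on U6 RNA, at 13.4 times. SF3B2 and LSM14A lay close behind LSM8, at 13.3 times each, so the order among them is not firm. HNRNPA2B1, an hnRNP that packages nascent RNA, had the highest RNAPII ChIP at 6.73 times the input (117 ChIP reads and 19 input reads). PRPF38B was at 5.44 times and HNRNPR, another RNA-packaging hnRNP, at 5.00 times. The 3 members lowest in RNAPII ChIP were LSM12 at 0.79, SNRPB2 at 1.17 and LSM11 at 1.43 times the input, and SNRPB2 and LSM11 still had H3K4me3 at 9.34 and 6.87 times.

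A pair of members had H3K4me3 near the input level. Whether the deposited window of LSM12 holds the start site in use in these cells was not tested, which limits its ChIP values. The start site of LSM12 as deposited had 38 H3K4me3 reads against 35 input reads, a depth-scaled ratio without pseudocount of 0.98 (exact 95% interval 0.60 to 1.60), and 23 RNAPII reads. HNRNPCL2, a member of a cluster of HNRNPC-like gene copies, had 27 H3K4me3 reads against 22 input reads, a ratio on the same scale of 1.11 (exact 95% interval 0.61 to 2.04). Next lowest was HNRNPH1, which binds runs of G in RNA, with H3K4me3 at 4.94 times the input. HNRNPCL2 was also the member with the highest H3K27me3 and EZH2, with 54 and 38 ChIP reads, or 2.11 and 1.87 times the input. Without the pseudocount the H3K27me3 ratio was 2.21 (exact 95% interval 1.32 to 3.81). These intervals cover counting error only. PRPF6 and SNRPB2 had the next highest EZH2, at 1.55 and 1.43 times the input, and SNRNP200 and HNRNPA1L2 the next highest H3K27me3, at 1.19 and 1.02 times. The lowest H3K27me3 was at LSM11 (0.33), SNRPA (0.38) and LSM10 (0.39), and the lowest EZH2 at LSM5 (0.56), PRPF19 (0.57) and SNRPA (0.62). LSM12 and HNRNPCL2 differed in RNA: LSM12 had 51.5 and 55.3 CPM in nuclear RNA, whereas HNRNPCL2 was at 0 in both libraries.

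The promoters that mark the ends of this range are printed from RefSeq (build GRCh38.p14), 300 bases each, from 250 before to 50 after the start, 5′ to 3′ on the gene's strand; RefSeq gave such a sequence for 49 of the 55 members. PRPF38B (chr1:108692060-108692359 on the plus strand) and SNRNP200 (chr2:96305497-96305796 on the minus strand) were highest in H3K4me3, HNRNPA2B1 (chr7:26200697-26200996 on the minus strand) in RNAPII, and LSM12 (chr17:44066622-44066921 on the minus strand) and HNRNPCL2 (chr1:13116805-13117104 on the minus strand) lowest in H3K4me3. The tables use hg19, so whether these windows coincide with the start sites of the ChIP table was not tested. Capitals mark the motif matches described next.
PRPF38B: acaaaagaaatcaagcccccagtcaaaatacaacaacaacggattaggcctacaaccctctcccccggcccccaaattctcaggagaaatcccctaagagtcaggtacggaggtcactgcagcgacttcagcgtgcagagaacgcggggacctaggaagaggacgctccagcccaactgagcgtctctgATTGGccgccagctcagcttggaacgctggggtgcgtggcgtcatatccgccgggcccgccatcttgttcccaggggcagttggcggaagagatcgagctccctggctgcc
SNRNP200: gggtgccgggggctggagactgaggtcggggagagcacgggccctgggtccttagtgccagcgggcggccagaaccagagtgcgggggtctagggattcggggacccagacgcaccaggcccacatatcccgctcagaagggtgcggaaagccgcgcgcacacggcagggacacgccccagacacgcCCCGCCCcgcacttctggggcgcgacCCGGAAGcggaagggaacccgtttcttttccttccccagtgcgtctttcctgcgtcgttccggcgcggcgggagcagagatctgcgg
HNRNPA2B1: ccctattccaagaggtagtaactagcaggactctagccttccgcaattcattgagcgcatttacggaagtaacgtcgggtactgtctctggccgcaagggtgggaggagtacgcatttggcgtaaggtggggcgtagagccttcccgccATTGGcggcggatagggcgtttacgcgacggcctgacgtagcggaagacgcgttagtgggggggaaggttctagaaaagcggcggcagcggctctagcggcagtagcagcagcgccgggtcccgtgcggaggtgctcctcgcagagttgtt
LSM12: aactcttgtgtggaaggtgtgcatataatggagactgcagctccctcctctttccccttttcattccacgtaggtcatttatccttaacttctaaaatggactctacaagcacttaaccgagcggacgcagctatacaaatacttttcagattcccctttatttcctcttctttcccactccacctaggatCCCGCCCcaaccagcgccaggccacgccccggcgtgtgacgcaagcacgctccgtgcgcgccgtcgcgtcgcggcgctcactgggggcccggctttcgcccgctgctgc
HNRNPCL2: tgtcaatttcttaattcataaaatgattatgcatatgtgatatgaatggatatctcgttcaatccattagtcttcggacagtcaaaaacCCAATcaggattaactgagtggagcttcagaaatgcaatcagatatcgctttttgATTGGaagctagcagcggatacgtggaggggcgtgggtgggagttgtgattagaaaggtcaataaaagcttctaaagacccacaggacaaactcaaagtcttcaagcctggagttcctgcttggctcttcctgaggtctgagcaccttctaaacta

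Motifs were sought as exact letters on both strands. The ETS core CCGGAAG was in 38.8% of the members' promoters (19 of 49), against 14.0% of 10969 promoters of genes in the tables and 10.7% of 27305 promoters of any RefSeq gene. CCAAT was in 51.0% of the members' promoters, against 36.0% and 35.7%. The Sp core GGGCGGG was in 42.9% of the members' promoters, against 46.0% and 32.9%, and TATAAA in 6.12% (SNRPC, HNRNPC and HNRNPD), against 8.89% and 12.0%. Of the promoters printed above, SNRNP200 held an ETS core and an Sp core, LSM12 an Sp core, and HNRNPA2B1, PRPF38B and HNRNPCL2 a CCAAT. The ETS core stood in 4 of the 5 SF3A and SF3B promoters (SF3A3, SF3B2, SF3B4 and SF3B6) and in 3 of the 4 Sm core promoters with a sequence (SNRPD2, SNRPE and SNRPG). The members' promoters had a median of 27 CpG and 61.3% G plus C, against 22 CpG and 63.0% for genes in the tables. HNRNPCL2 was the lowest member with 6 CpG and 41.7% G plus C, and LSM12 had 23 CpG.

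PHC1 ChIP scores of the members were mostly below 0. The authors' deposited PHC1 ChIP score, joined over 2 libraries, had a median of -0.56 over the members and 0.07 over all genes, and was above 0 at 19 of 55 members, against 51.6% of all genes. HNRNPCL2 (3.66), HNRNPF (3.2) and HNRNPA1L2 (2.83) had the highest PHC1 scores, and PRPF3 (-3.74), HNRNPLL (-3.53) and LSM3 (-3.34) the lowest. The score of the PHC1-dFCS transgene had a median of 0.76 over the members and 1.13 over all genes, and was above 0 at 33 of 55 members, against 75.7% of all genes. SF3B2 (4.43), SNRPE (3.74) and PRPF38B (3.52) were highest in the PHC1-dFCS score, and PRPF3 (-3.94), HNRNPUL1 (-2.25) and LSM3 (-2.17) lowest. The PHC1-dFCS score exceeded the PHC1 score at 43 of 55 members, against 79.4% of all genes, with a median difference of 1.37 over the members and 1.09 over all genes. The difference was positive at 10 of 10 LSM and 5 of 5 Sm core genes, and at 1 of 3 U1 snRNP genes. These columns hold 1 joined value per gene, so no replicate error can be given.

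In nuclear RNA the members were well above the typical gene. Values are in CPM, which here stands for RNA-seq reads or summed PAR-CLIP cluster coverage per 1000000 of the library's total in gene regions, scaled with TMM (trimmed mean of M values) factors. The median member had 130.4 and 136 CPM in the nuclear RNA libraries, against 14.1 and 14.2 for all genes. Per kb of gene region, introns included, the median member had 7.06 CPM per kb and the median gene 0.473. HNRNPU, a chromatin-associated hnRNP also called SAF-A, was highest per kb, at 103 CPM per kb. HNRNPH1 (71.0), HNRNPDL, an AU-rich element binding hnRNP (50.5), and HNRNPA1, a splicing repressor (44.9), followed on the same scale. HNRNPCL2 was lowest, at 0, and LSM12 next lowest, at 1.62 CPM per kb. By subfamily the median per kb was 13.2 for hnRNP genes, 13.0 for U2AF, 10.8 for U1 snRNP, 9.61 for SF3A and SF3B, 7.42 for the Sm core, 5.16 for LSM and 4.75 for the tri-snRNP.

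**Figure D2:**
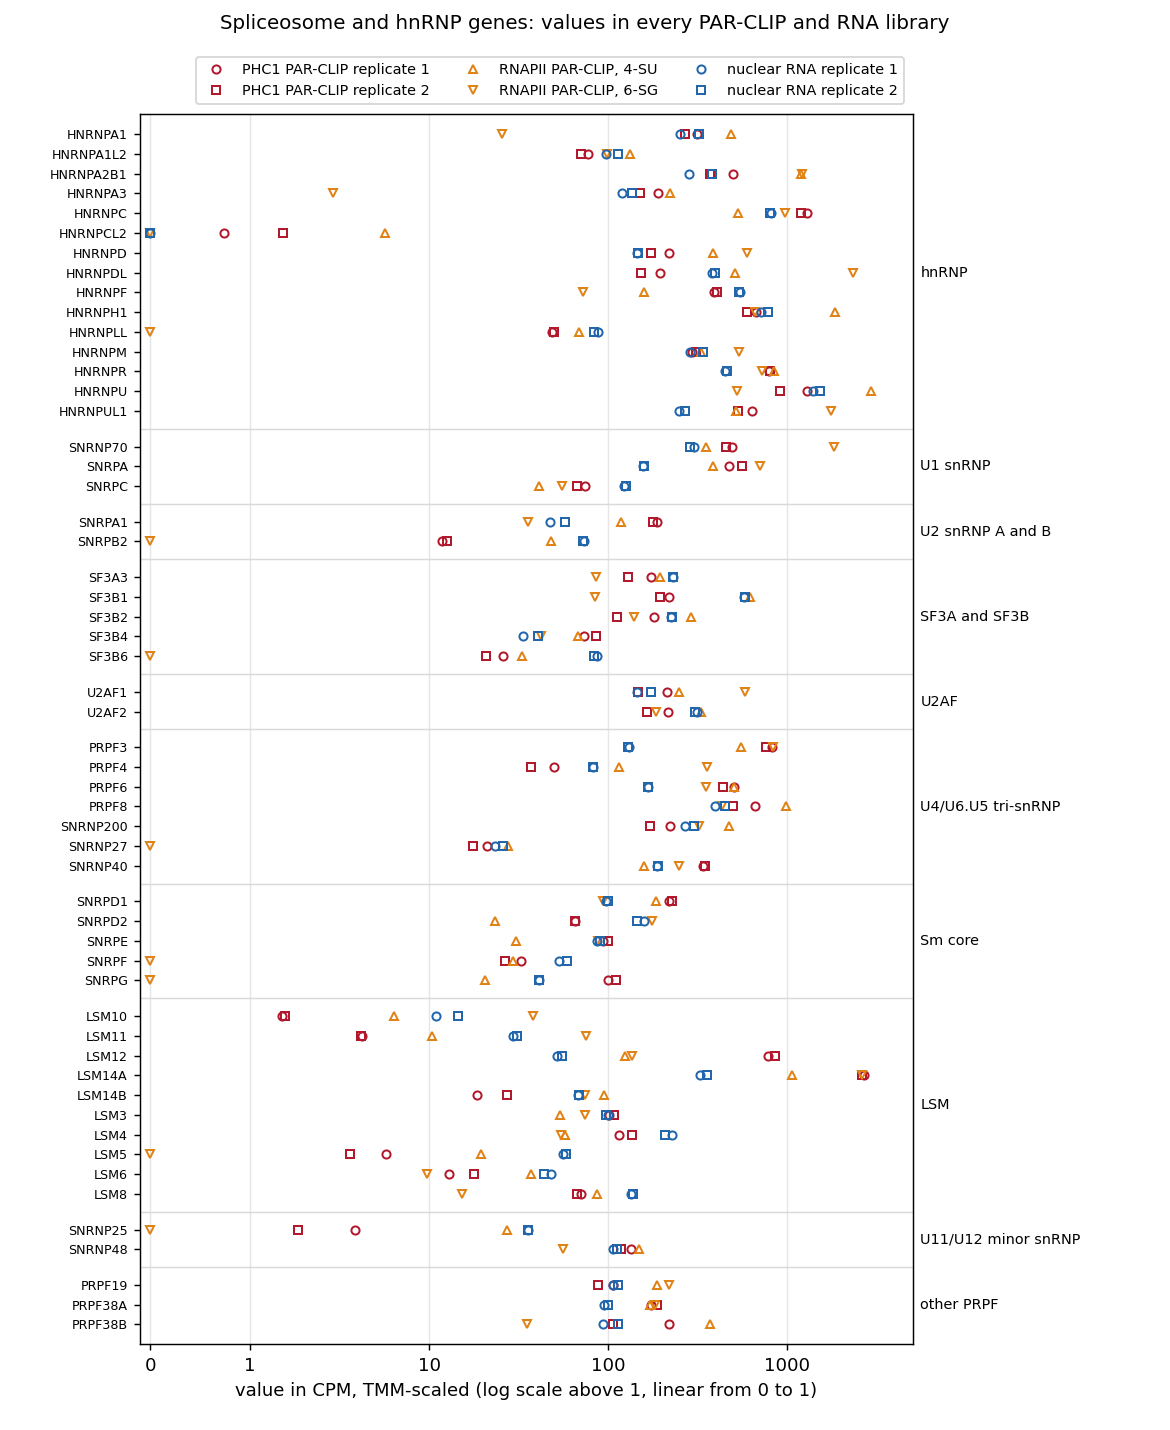
Value in CPM of the members, except 1 that is not shown, in the 2 PHC1 PAR-CLIP, 2 RNAPII PAR-CLIP and 2 nuclear RNA libraries, in rows by subfamily, on an axis that is logarithmic above 1. The replicate libraries of PHC1 and of RNA lie close together at many members. PHC1 replicates differ more at others, such as SNRNP25 (3.86 and 1.86). The 6-SG library of RNAPII is listed at 0 for 9 members and departs from the 4-SU library for many others.

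Relative to nuclear RNA, PHC1 PAR-CLIP coverage of the members moved in both directions. Called shares were below or near those of all genes when clusters on either strand were counted. Of 54 members tested, 16 were higher (29.6%, against 38.7% of all 9354 genes tested), 23 were lower (42.6%, against 43.7%) and 15 were not called, by limma with Benjamini-Hochberg adjusted p under 0.05. The median log2 fold was -0.21 over the members and -0.17 over all genes. Without TMM factors the medians shifted to -0.72 and -0.72, and the members' counts to 13 higher and 33 lower. Directions below are therefore relative to the TMM scale. The spread was wide: log2 folds ran from 3.91 for LSM12 to -3.38 for LSM5. The labels do not say whether replicates came from separate cultures, so p measures the spread between these libraries. In bulk RNA fewer expressing cells and less RNA per cell cannot be told apart.

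**Figure D3:**
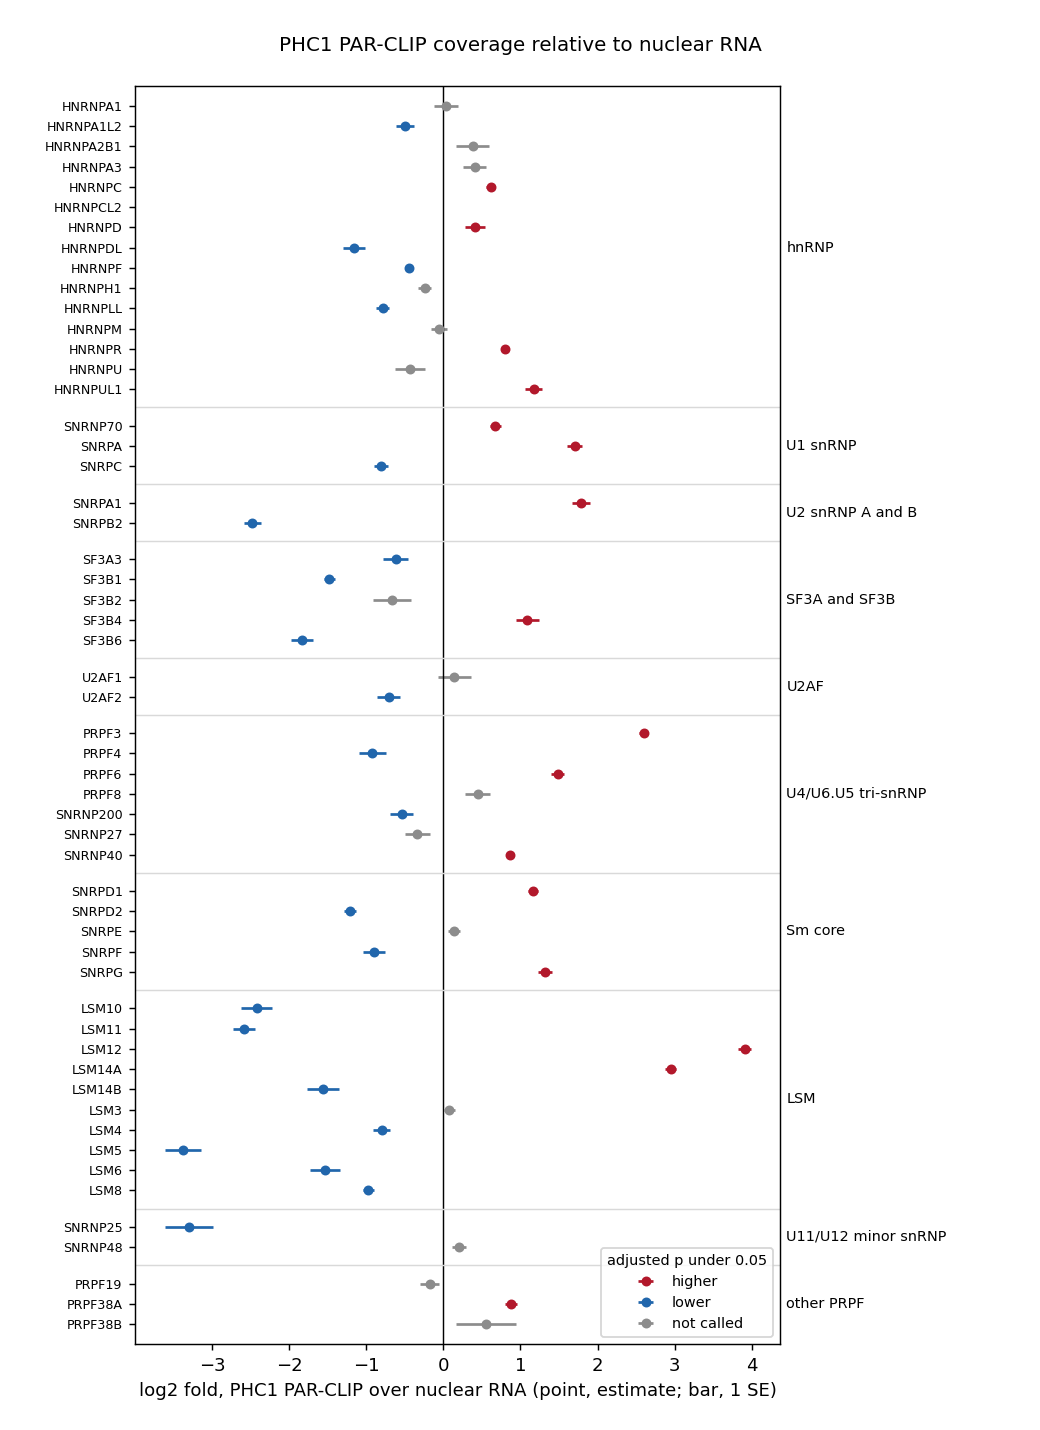
Log2 fold of PHC1 PAR-CLIP over nuclear RNA for the members tested, except 1 that is not shown (point, estimate; bar, 1 SE), in rows by subfamily, coloured by the call at an adjusted p of 0.05. LSM12 is highest at 3.91 and LSM5 lowest at -3.38, and both lie in the LSM family; HNRNPCL2 was not tested and has no point.

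The LSM family held both extremes, with 2 of 10 genes higher and 7 lower. LSM12 (chr17:42112003-42144987, hg19), an LSM-domain protein outside the snRNP rings, had 781 and 850.4 CPM in PHC1 PAR-CLIP, against 51.5 and 55.3 in nuclear RNA. The PHC1 mean was 815 ± 49.4 and the RNA mean 53.4 ± 2.72 (SD, n = 2 each), a log2 fold of 3.91 (SE 0.08, adjusted p = 0.000133, limma). LSM14A (chr19:34663352-34720420), which represses mRNAs in cytoplasmic granules, had 2665 and 2605 CPM in PHC1 PAR-CLIP, against 324 and 358 in nuclear RNA. Its log2 fold was 2.95 (SE 0.07, adjusted p = 0.000133, limma), and its paralogue LSM14B went the other way, at 18.5 and 27.3 in PHC1 PAR-CLIP, against 68.1 and 68.5 in RNA (log2 fold -1.56). In all 3 genes the PHC1 and RNA libraries did not overlap, which was not counted over all genes. Of all genes tested, 38.7% were called higher and 43.7% lower.

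The LSM genes of small nuclear particles were lower in PHC1 PAR-CLIP or not called. LSM5 (chr7:32524945-32534870), a subunit of the rings on U6 and on decaying mRNA, had 5.72 and 3.60 CPM in PHC1 PAR-CLIP, against 56.1 and 57.9 in nuclear RNA (log2 fold -3.38, SE 0.23, adjusted p = 0.000495, limma). LSM11 and LSM10, which replace Sm proteins in the U7 particle of histone mRNA processing, had log2 folds of -2.58 and -2.42. LSM10 rested on 1 cluster in each PHC1 library, and that of replicate 1 lay on the opposite strand. LSM11 was at 4.24 and 4.17 in PHC1 PAR-CLIP, against 29.6 and 30.9 in RNA. LSM6 (-1.53), LSM8 (-0.97) and LSM4 (-0.80), further ring subunits, were also lower, and LSM3 (0.08) was not called.

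The Sm core, the ring shared by U1, U2, U4 and U5, had 2 of 5 genes higher and 2 lower. SNRPG had 99.3 and 110.0 CPM in PHC1 PAR-CLIP, against 41.1 and 41.2 in nuclear RNA (log2 fold 1.32, SE 0.09), and SNRPD1 had 219 and 228, against 97.7 and 99.7 (1.17, SE 0.06). SNRPD2 was lower, at 65.4 and 65.2 CPM in PHC1 PAR-CLIP, against 159 and 146 in RNA (-1.21, SE 0.08), as was SNRPF (-0.90). SNRPE (0.13) was not called. Several Sm and hnRNP genes have processed pseudogenes, and how multiply mapping reads were assigned is not given in the sources used here.

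Of the 3 U1 snRNP genes, which recognise the 5′ splice site, 2 were higher and 1 lower. SNRPA, the U1 A protein, had 472 and 558 CPM in PHC1 PAR-CLIP, against 155 and 158 in nuclear RNA (log2 fold 1.70, SE 0.10, adjusted p = 0.000331, limma). SNRNP70, which binds U1 stem-loop I, had a log2 fold of 0.68, and SNRPC, the zinc-finger U1 C protein, of -0.81. SNRNP70 was not called without TMM factors (0.16) and was called lower on cluster numbers (-0.75), and SNRPA was at -0.22 on cluster numbers. The 2 U2 snRNP genes moved in opposite directions; their products bind U2 RNA as a dimer. SNRPA1, the U2 A′ protein, had 186 and 179 CPM in PHC1 PAR-CLIP, against 47.4 and 57.1 in RNA (1.79, SE 0.12), and SNRPB2, the U2 B″ protein, had 11.9 and 12.6, against 73.7 and 71.9 (-2.48, SE 0.11).

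In SF3A and SF3B, subunits of the U2 snRNP at the branch site, 1 of 5 genes was higher and 3 lower. SF3B1, the scaffold that clamps the branch-site helix, had 218 and 196 CPM in PHC1 PAR-CLIP, against 572 and 580.1 in nuclear RNA (log2 fold -1.48, SE 0.07, adjusted p = 0.00024, limma). SF3B6, the branch-site p14 protein, was at -1.83 and SF3A3, a U2-contacting subunit, at -0.62. SF3B4, which contacts the intron upstream of the branch site, was higher at 1.09 (SE 0.15). U2AF2, which binds the polypyrimidine tract, was lower at -0.71 and its partner U2AF1, which reads the 3′ splice site, was at 0.14 and not called.

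In the tri-snRNP 3 of 7 genes were higher and 2 lower. PRPF3 (chr1:150293928-150325704, hg19), a U4/U6 protein, had 818 and 764 CPM in PHC1 PAR-CLIP, against 130.4 and 129 in nuclear RNA (log2 fold 2.6, SE 0.06, adjusted p = 0.000133, limma). PRPF4, which binds PRPF3 in the same particle, had 49.9 and 36.9 CPM in PHC1 PAR-CLIP, against 82.2 and 81.9 in RNA (-0.92, SE 0.17). PRPF6, the bridge between U5 and U4/U6, was higher at 1.48 and SNRNP40, a WD-repeat U5 protein, at 0.87. SNRNP200 was lower at -0.54, and PRPF8 (0.45), the core of the catalytic centre, and SNRNP27 (-0.34) were not called. Of the 2 U11/U12 genes, SNRNP25 was lower, at 3.86 and 1.86 CPM in PHC1 PAR-CLIP, against 35.6 and 35.9 in RNA (-3.30, SE 0.31). SNRNP25 rested on 3 and 2 clusters in the PHC1 libraries, and 50.4% of its replicate 1 coverage lay on the opposite strand. SNRNP48 was at 0.21 and not called.

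Of 14 hnRNP genes tested, 4 were higher, 4 lower and 6 not called, and their log2 folds spanned a narrower range than those of the LSM genes, 1.17 to -1.16. HNRNPUL1, an RNA-binding protein of the HNRNPU family, had 633 and 532 CPM in PHC1 PAR-CLIP, against 248 and 267 in nuclear RNA (1.17, SE 0.11, adjusted p = 0.00108, limma). HNRNPR (0.80), HNRNPC (0.61), which binds runs of U, and HNRNPD (0.41), an AU-rich element binding protein, were also higher. Without TMM factors HNRNPC (0.10) and HNRNPD (-0.10) were not called. On cluster numbers HNRNPC (-0.82) and HNRNPR (-0.85) were called lower. HNRNPDL, the paralogue of HNRNPD, was lowest, at 195 and 153 CPM in PHC1 PAR-CLIP, against 378 and 396 in RNA (-1.16, SE 0.14). HNRNPLL, a splicing regulator known from T cells (-0.79), HNRNPA1L2 (-0.50) and HNRNPF (-0.45) were lower too. HNRNPU, the member with the most nuclear RNA, had 1292 and 907 in PHC1 PAR-CLIP, against 1397 and 1525 in RNA (-0.43), and was not called. HNRNPCL2 had 0.735 and 1.53 CPM in PHC1 PAR-CLIP, from 1 cluster in each library, against 0 in both RNA libraries, and did not pass the filter on low values; reads of the near-identical copies in its gene cluster cannot be told apart with certainty. Among the other PRPF genes, PRPF38A was higher (0.88), and PRPF38B (0.55) and the ubiquitin ligase PRPF19 (-0.18) were not called.

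The number of clusters per gene gave a lower picture than their depth. On cluster numbers, 6 of 54 members were higher, against 36.7% of all genes, and 36 lower, against 41.7% of all genes. The median log2 fold was then -0.86 over the members and -0.19 over all genes. Of the 16 members called higher on coverage, 6 were also called higher on cluster numbers and 3 were called lower. Of the 23 called lower on coverage, 22 were also lower on cluster numbers. The 14 hnRNP genes tested had 0 higher and 11 lower on cluster numbers, and HNRNPU (-3.08) and HNRNPH1 (-2.55), among the genes with the most RNA per kb, were the lowest of the hnRNP genes. LSM12 (2.26) and PRPF3 (0.95) had the highest values. Lower values on cluster numbers were not confined to PHC1. RNAPII over RNA, with both nucleosides, had a median of -1.51 over the hnRNP genes, 13 of 14 being negative. The PHC1 median was -0.87, also with 13 of 14 negative. Over all members the RNAPII median was -0.999, against -0.73 over all genes. PHC1 over RNAPII had a median of 0.13 over the hnRNP genes, 11 of 14 being positive. No gene was called in either RNAPII comparison, and the 6-SG library held few clusters.

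Gene length moved with the fold. The members' regions had a median of 16.6 kb, against 23.8 kb for all genes. Of 11 members under 10 kb, 1 was higher and 7 lower, with a median log2 fold of -1.16, against -1.78 for all genes of that length. Of 21 members of 10 to 20 kb, 5 were higher and 7 lower (median -0.24, all genes -0.47). Of 15 members of 20 to 40 kb, 6 were higher and 7 lower (median 0.21, all genes 0.01). Of 7 over 40 kb, 4 were higher and 2 lower (median 0.61, all genes 0.30). Among all genes under 10 kb, 14.9% were called higher and 70.9% lower, and from 10 to 20 kb 31.6% and 48.7%. From 20 to 40 kb these shares were 42.0% and 40.4%, and over 40 kb 48.5% and 33.1%. Spearman's rho of length with the fold was 0.37 over the 54 members and 0.31 over all genes tested, as descriptions across genes that share the same libraries. The part of length in the folds was not tested.

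**Figure D4:**
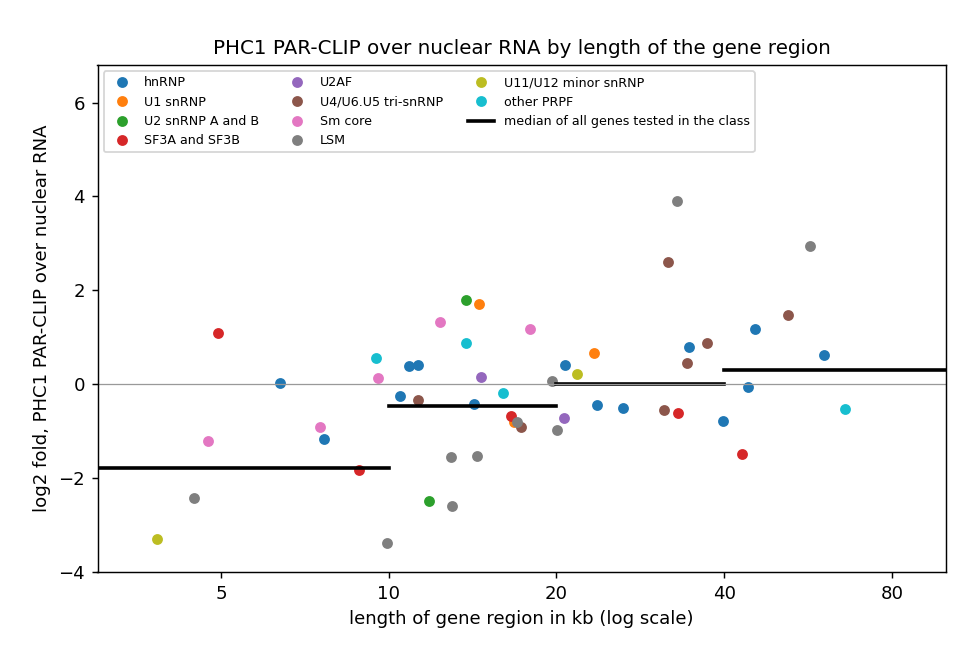
Log2 fold of PHC1 PAR-CLIP over nuclear RNA against the length of the gene region (log axis) for the 54 members tested, coloured by subfamily, with the median of all genes tested in each length class as black lines. Both the members and the class medians are lower for regions under 10 kb, where the median is -1.16 for members and -1.78 for all genes.

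A larger share of clusters recurred between libraries in the members than in genes at large, as a description. Of the members' 3053 clusters in PHC1 replicate 1, 77.3% met a replicate 2 cluster on their strand in 1 base or more, against 67.2% of all clusters in genes. In the other direction these shares were 84.9% of the members' 3360 clusters and 70.8%. With the RNAPII 4-SU library, 48.1% and 50.1% of the members' PHC1 clusters in the 2 replicates shared a base, against 30.7% and 29.3% of all clusters in genes. The members' coverage and abundance were also above those of the median gene, and their part in these shares was not tested. The next count was not made over all genes, and it includes members with few clusters, such as HNRNPCL2. The deepest cluster of 1 PHC1 library shared 1 base or more with that of the other in 26 of 55 members. In SF3B4 it lay at chr1:149897728-149897789 in PHC1 replicate 1 and chr1:149897728-149897825 in replicate 2 (hg19, minus strand), and RNAPII 4-SU had its deepest cluster there too, at chr1:149897738-149897825. In LSM5 it lay at chr7:32528906-32528940 in replicate 1 and held 47.3% of the gene's PHC1 coverage there.

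The members' clusters were spread along the whole gene region. Each decile of the region, ordered 5′ to 3′ for 49 members with a known strand, held 9.05% to 11.4% of the clusters in PHC1 replicate 1 and 8.81% to 12.2% in replicate 2. In the RNAPII 4-SU library the range was 8.22% to 12.3%, with the highest share in the last decile. Over all genes the PHC1 shares were highest in the 2 deciles at the 5′ end, 11.8% and 11.5% in replicate 1, and the RNAPII 4-SU share was highest in the last decile, at 14.1%.

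**Figure D5:**
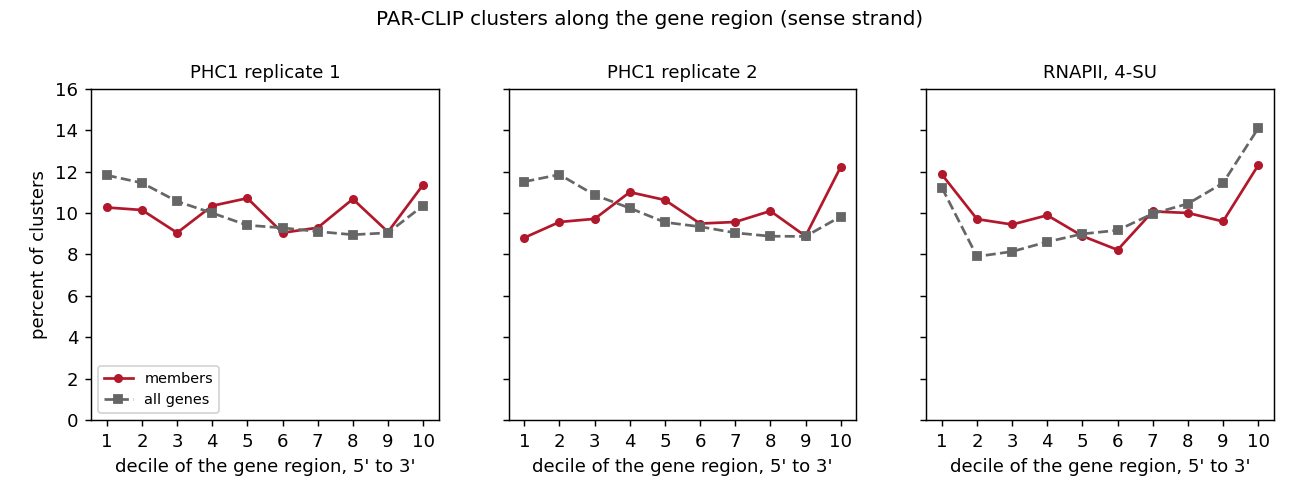
Percent of sense-strand clusters in each decile of the gene region from the 5′ to the 3′ end, for 49 members with a known strand (circles) and all genes with a known strand (squares), in the 2 PHC1 libraries and the RNAPII 4-SU library. The members' shares stay between 8.22% and 12.3% in the 3 libraries.

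RNAPII PAR-CLIP rested on libraries made with different nucleosides, and in the main setting, which used both, no gene passed the test. Over nuclear RNA, 0 of 54 members and 0% of 8654 genes were called by limma. An unadjusted p under 0.05 was reached by 14 members (11 higher, 3 lower) and 24% of all genes (993 higher, 1086 lower). Other settings that used both libraries did call genes: 175 higher and 1254 lower of all genes without the filter, 58 and 205 on the gene's strand, and 8 and 2 without either RNA replicate. PRPF3 had the highest log2 fold, 2.38 (SE 0.30), with 551 and 836 CPM in the 4-SU and 6-SG RNAPII libraries, against 130.4 and 129 in nuclear RNA. LSM14A (2.29, SE 0.54) and HNRNPUL1 (1.88, SE 0.71) followed. SF3B6 (-3.88), LSM5 (-3.67) and SNRPB2 (-3.40) had the lowest values with both libraries, and all 3 were listed at 0 in the 6-SG library, as were SNRNP27, HNRNPCL2, SNRPF, SNRPG, SNRNP25 and HNRNPLL. With the 4-SU library alone SF3B6 was at -1.34, LSM5 at -1.49 and SNRPB2 at -0.60, and the lowest member was SNRPD2 at -2.66. HNRNPUL1 was then at 1.006. The median with both libraries was 0.10 over the members and -0.67 over all genes.

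With the 4-SU library alone, whose spread was assumed to be that of the RNA libraries, 28 of 54 members were higher than in nuclear RNA (51.9%, against 40.5% of all genes) and 20 lower (37.0%, against 51.0%). The median was then 0.37 over the members and -0.18 over all genes. The higher calls included 8 of 14 hnRNP genes (3 lower), 6 of 7 tri-snRNP genes (1 lower) and 4 of 4 other PRPF genes, whereas 4 of 5 Sm core genes and 7 of 10 LSM genes were lower. HNRNPU had 2917 CPM with 4-SU and 526 with 6-SG in RNAPII PAR-CLIP, against 1397 and 1525 in nuclear RNA. HNRNPA2B1 had 1193 and 1211 in the 2 RNAPII libraries, against 284 and 379 in RNA.

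PHC1 set directly against RNAPII again gave 0 of 53 members and 0% of 8550 genes called by limma. At an unadjusted p under 0.05 there were 10 members (3 higher, 7 lower) and 21.8% of all genes (1214 higher, 652 lower). Higher at that level were LSM12, HNRNPF and LSM4, and among the lower were HNRNPA2B1, HNRNPD, HNRNPDL, LSM14B, PRPF4 and PRPF19. SNRPG (4.51, SE 1.70), LSM12 (2.64, SE 0.27) and HNRNPLL (2.59, SE 2.29) had the highest log2 folds. SNRPG and HNRNPLL were listed at 0 in the 6-SG library, and with the 4-SU library alone SNRPG was at 2.29 and HNRNPLL at -0.47, while LSM12 was at 2.70. LSM12 had 781 and 850.4 CPM in PHC1 PAR-CLIP, against 124 and 135 in RNAPII PAR-CLIP. The lowest were LSM10 (-2.74, SE 1.19), HNRNPDL (-2.65) and LSM11 (-2.50, SE 1.30). In RNAPII PAR-CLIP LSM10 had 6.40 CPM with 4-SU and 37.9 with 6-SG, and LSM11 had 10.4 and 75.6. LSM10 and LSM11 did not pass the filter with the 4-SU library alone, where LSM14B was lowest at -2.03.

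Set against the RNAPII 4-SU library alone, the calls rest on the spread of the 2 PHC1 libraries, and the lone RNAPII library is assumed to vary like them. On that footing 15 of 51 members were higher in PHC1 (29.4%, against 33.7% of all genes) and 20 lower (39.2%, against 27.8%). The median was -0.37 over the members and 0.04 over all genes. Among hnRNP genes 2 were higher and 7 lower of 14, led by HNRNPF, which binds runs of G, at 1.31, and by HNRNPH1 and HNRNPDL at -1.56 each. Sm core genes were 3 higher and 0 lower of 5, and U1 snRNP genes 3 higher of 3. On numbers of clusters in the PAR-CLIP libraries, edgeR called 8 of 47 members higher in PHC1 (18.5% of all genes), namely HNRNPF, LSM12, LSM3, PRPF6, SNRNP40, SNRPD1, SNRPE and SNRPG, and 2 lower (16.6% of all genes), LSM14B and SNRNP200. DESeq2 on the same numbers called 0 members. These comparisons share the PHC1 libraries with the comparison against RNA.

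Genes of the same pathway outside the naming rule were set beside the members. For PHC1 over nuclear RNA, 38.7% of all genes tested were called higher and 43.7% lower. Of 31 other spliceosome proteins tested for PHC1 over nuclear RNA, 10 were higher and 8 lower by limma, with a median log2 fold of 0.07. TXNL4A, a small U5 protein, was highest (4.84, SE 0.78) and PLRG1, a PRPF19-complex protein, lowest (-2.41, SE 0.29). Of 8 hnRNP-type proteins under other names, 5 were higher and 1 lower (median 1.13), and SYNCRIP, an RNA-binding protein close to HNRNPR, was lowest (-0.38, SE 0.11). The median of 11 snRNP assembly factors was -0.12, 5 being higher and 4 lower, from SNUPN, the import adaptor of snRNPs (1.97, SE 0.07), to GEMIN5, the snRNA-binding subunit of the SMN complex (-2.34, SE 0.10).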

How the data were processed

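The submitters' processing notes name hg19 throughout. They list TopHat2 2.0.11 under RNA-seq, Bowtie2 2.2.3 and SAMtools 0.1.19 under ChIP-seq, and Bowtie 0.12.7 with the same SAMtools under PAR-CLIP. The cluster caller is not given in the sources used here. The authors deposited RNA-seq counts per gene, a PAR-CLIP signal (mean read coverage of each cluster) and a ChIP score per start site. The RNA-seq table had 1 further value column that was not used. Coverage times cluster length gave whole numbers (tolerance 0.001) in every cluster, and these were summed over clusters whose midpoint lay in a gene region, on either strand. No 2 gene regions overlapped. The deposited ChIP score of EZH2, H3K27me3, H3K4me3 and RNAPII equalled scaled ChIP reads minus scaled input reads (tolerance 1e-08), so reads were recovered, and ratios used a pseudocount of 2 input reads. The PHC1 and PHC1-dFCS score could not be resolved in this way. A ratio to input had been planned for it, and it is given as deposited.

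PAR-CLIP and RNA values were scaled with TMM factors over the 6 libraries (edgeR 4.0.16), kept at 5 CPM or more in 2 libraries of a comparison, and tested as log2(value + 1), which understates changes of low genes, with limma 3.58.1 (R 4.3.3), trended and robust, adjusted by Benjamini-Hochberg over all genes tested. The fits were also run on simulated data with normal noise of the same SD for all genes of an arm. That run does not stand for genes resting on few clusters, and its outcome is not reported here. DESeq2 1.42.0 was an alternative on cluster numbers. In each subfamily the 2 highest and 2 lowest members are named, for the comparisons with RNAPII, the 3 highest and 3 lowest, and for ChIP likewise; others named were chosen after their values were seen, and 2 genes this rule names are not reported here. Symbols, strand (49 of 55 members) and promoters came from RefSeq by gene number (14378 of 14432 genes had a symbol). Members and lists were chosen with earlier results of these data known. Alternatives left out each library, the TMM factors or the filter, and changed the pseudocount, the cluster rule or the measure.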

Additional observations from a re-analysis of the deposited data

How the results depend on the processing

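Members' counts for PHC1 over nuclear RNA were 16 higher and 23 lower. They were within 1.5 times under no TMM factors, no filter, a pseudocount of 0.1 or 5 and both other rules for placing clusters. The balance turned with clusters on the gene's strand, a setting chosen after seeing the data. There 19 of 48 members were higher (39.6%) and 16 lower (33.3%), against 2802 and 3154 of all 7338 genes tested. The median log2 fold was then 0.03 over the members and -0.22 over all genes. The hnRNP genes were 6 higher and 2 lower of 13 in that setting. Leaving out 1 library gave 15 to 21 higher and 20 to 28 lower. Numbers of clusters gave 6 higher and 36 lower, and turned SNRNP70 to -0.75, SNRPA to -0.22, SNRNP48 to -0.26, U2AF1 to -0.29, HNRNPR to -0.85, HNRNPC to -0.82, HNRNPD to -0.03, PRPF8 to -0.85, PRPF38B to -1.08, PRPF38A to -0.16, LSM3 to -0.37 and SNRPE to -0.24; the cause was not tested. Without TMM factors SNRNP48 turned to -0.30, U2AF1 to -0.37, HNRNPD to -0.10, PRPF8 to -0.07, LSM3 to -0.43 and SNRPE to -0.38, and SNRNP70 (0.16) and HNRNPC (0.10) were no longer called. U2AF1 was at -0.12 without PHC1 replicate 1 and 0.41 without replicate 2, and PRPF19 at 0.15 on the gene's strand.

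For RNAPII over RNA no filter gave 2 higher and 1 lower. Leaving out the 4-SU library gave a median log2 fold of -0.04 over the members and -1.05 over all genes. Leaving out the 6-SG library (the 4-SU library alone) gave 0.37 and -0.18. For PHC1 over RNAPII without the 4-SU library the median was 0.38 over the members and 0.88 over all genes. Without the 6-SG library these medians were -0.37 and 0.04. edgeR on cluster numbers gave 8 higher and 2 lower. HNRNPLL turned to -0.47 with the 4-SU library alone and was at 5.65 without it. At 3 times the input 0 members passed for H3K27me3, and at 1.5 times 2 passed for EZH2. The labels do not say whether PHC1 and RNA libraries of the same replicate number were prepared together. Their deviations from the group mean correlated at 0.04 over genes, which cannot settle this. The fit with the replicate block called 18 members higher and 25 lower, among them all 16 and 23. The 6-SG library held 45259 clusters, which limits the RNAPII comparisons.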
